A study of Mus musculus with 27 samples.

Results

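The genes described here are 7 keratins of the suprabasal epidermis, Krt1, Krt2, Krt10, Krt77, Krt78, Krt79 and Krt80. They were taken by gene symbol, and all 7 were among the 51906 genes of the RNA-seq count table and the 32285 genes of each single cell matrix. The RNA-seq came from 3D cultures of hair follicle stem cells (HFSCs) sorted from the back skin of mice at postnatal day 55, when the hair follicles rest in telogen. There were 4 groups of 2 libraries. By the labels these came from 2 mice of each genotype, with the cells of each mouse grown in both media. Wild-type cells and Rxra cKO cells, from mice carrying Sox9-CreER, Rxra-fl/fl and R26-YFP, were each grown either in fetal bovine serum (FBS) medium or in atRA+PKCi medium. The second medium held no serum but B-27, all-trans retinoic acid (atRA) and a blocker of protein kinase C isoforms that need calcium (PKCi), so the effect of atRA alone cannot be told apart from that of PKCi or of the removal of serum. The Cre was driven from Sox9 and needs tamoxifen, Rxra encodes a retinoid X receptor that pairs with the retinoic acid receptors, and every culture line had first been grown on inactivated feeder cells. Single cell matrices came from the growing (AnaVI) back skin of 2 wild-type mice at postnatal day 32 and from cultured HFSCs of the same 2 mice, in which hashtag antibodies marked each culture condition.

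Keratins are the intermediate filament proteins of epithelia, and a filament needs a type I and a type II keratin. When a basal keratinocyte leaves the basement membrane, Krt5 and Krt14 give way to the type II keratin Krt1 and its type I partner Krt10, which make up most of the filament mass of the spinous and granular layers. Krt2 is a type II keratin of the upper layers, best known in mouse ear, tail and footpad skin. Krt77, Krt78 and Krt80 are type II keratins of differentiating epidermis, of which Krt80 lies near desmosomes and the cell edge, and Krt79 is a type II keratin of the infundibulum, hair canal and sebaceous duct. Retinoic acid is long known to hold back keratinization in the epidermis.

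Library totals lay between 25150162 and 35879630 estimated counts, and levels are given as CPM, counts scaled to the TMM-normalized library size. Rxra itself stood at 149 and 122 CPM for wild-type in FBS, 147 and 143 for wild-type in atRA+PKCi, 97.2 and 95.7 in Rxra cKO FBS, and 148 and 145 in Rxra cKO atRA+PKCi. It was lower by label in FBS (log2 fold change -0.49, SE 0.09, adjusted p = 0.00264) and not in atRA+PKCi (0.01, SE 0.09, adjusted p = 0.927). A count over the whole gene includes exons outside a floxed stretch, so this level does not check the genotype, and Rxra cKO stands below for the libraries labelled so. Of 12 HFSC markers, Sox9 was at 72.5 to 165 CPM as a group mean and Krt15 at 4.20 to 4503, while Cd34 was near 0 at 0.446 to 2.35 CPM. Summed feeder and fibroblast markers (12 genes, 1 to 3 of them at 0) stood at 815 and 824 CPM for wild-type in FBS, 521 and 517 for wild-type in atRA+PKCi, 618 and 594 in Rxra cKO FBS and 462 and 472 in Rxra cKO atRA+PKCi. Summed immune markers (7 genes, 2 to 6 at 0) were at 0.380 to 3.35 CPM, highest in Rxra cKO atRA+PKCi, and summed endothelial, melanocyte and Schwann markers at 2.69 to 4.05 CPM. The part of these other cells in the results below was not tested.

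Krt10 lies among the type I keratins on chromosome 11 (chr11:99385254-99389364, minus strand, GRCm38), where it overlaps the gene Gm11940. The other 6 genes lie on the minus strand of chromosome 15 within the type II keratins, in the order Krt80, Krt2, Krt1, Krt77, Krt79, Krt78 over 607 kb that hold 24 keratin genes. Krt1 spans chr15:101845426-101850794, Krt77 chr15:101858731-101869705, Krt79 chr15:101929332-101940324 and Krt78 chr15:101946001-101954287. Krt80 spans chr15:101347444-101370162 and overlaps Gm35853 and Mir1941. Since Krt79 and Krt78 are neighbours that moved in opposite directions, their promoters are shown with that of Krt10, as the 250 bases before the transcript start (RefSeq, GRCm38.p6, minus strand, 5′ to 3′). Capitals mark the motifs found.

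Krt10, chr11:99389365-99389614: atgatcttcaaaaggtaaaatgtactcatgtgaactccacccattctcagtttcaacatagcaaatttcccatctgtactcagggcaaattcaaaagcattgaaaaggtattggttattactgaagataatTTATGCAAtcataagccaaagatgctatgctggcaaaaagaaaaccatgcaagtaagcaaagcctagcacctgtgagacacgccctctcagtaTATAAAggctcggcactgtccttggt

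Krt78, chr15:101954288-101954537: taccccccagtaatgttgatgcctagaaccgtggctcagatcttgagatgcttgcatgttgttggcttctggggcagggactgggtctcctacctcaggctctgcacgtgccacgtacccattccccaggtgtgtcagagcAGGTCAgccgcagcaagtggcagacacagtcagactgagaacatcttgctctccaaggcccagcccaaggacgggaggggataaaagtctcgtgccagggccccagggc

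Krt79, chr15:101940325-101940574: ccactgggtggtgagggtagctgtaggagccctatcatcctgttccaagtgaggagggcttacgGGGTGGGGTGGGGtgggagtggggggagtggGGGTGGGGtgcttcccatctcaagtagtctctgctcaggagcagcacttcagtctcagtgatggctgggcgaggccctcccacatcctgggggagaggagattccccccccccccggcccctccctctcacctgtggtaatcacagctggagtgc

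In all, 8 short motifs were searched on both strands of the 5 members with a RefSeq promoter (Krt2, Krt10, Krt77, Krt78 and Krt79). In Krt10 the capitals are a C/EBP motif (TTGCNNAA, in 10.8% of 32851 promoters) that starts 119 bases before the transcript and a TATA box (TATAAA, 13.6%) at 26 bases. The Krt78 capitals are a retinoid receptor half-site (AGGTCA, 16.3%) at 109 bases. In Krt79 they are the KLF motif (GGGTGNGG, 16.6%), read 3 times at 186, 181 and 155 bases, where the first and second overlap. Krt2 held 1 KLF motif at 63 bases and Krt77 1 C/EBP motif at 129 bases. No letters of AP-1 (TGANTCA, 7.81%), GRHL (AACNNGTT, 4.20%), SOX (ACAATGG, 3.66%) or a retinoid response element of the DR5 kind (a pair of AGNTCA set 5 bases apart, 0.204%) were in these windows. A match is a description of the letters and not a bound site.

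The suprabasal keratins did not move as 1 block between the media. In wild-type cells, atRA+PKCi went with lower Krt1, Krt10, Krt77, Krt78 and Krt80 and with higher Krt79. In Rxra cKO cells the pair Krt1 and Krt10 was instead higher in atRA+PKCi than in FBS, while Krt77, Krt78 and Krt80 were lower and Krt79 higher, as in wild-type. Of the 7 genes, 6 passed the filter on low counts, and Krt2 had 0 counts in all 8 libraries, which allows up to 0.0461 to 0.0563 CPM in a group at 3 counts. Fewer cells of a kind and less RNA per cell cannot be told apart in these bulk libraries.

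**Figure D1:**
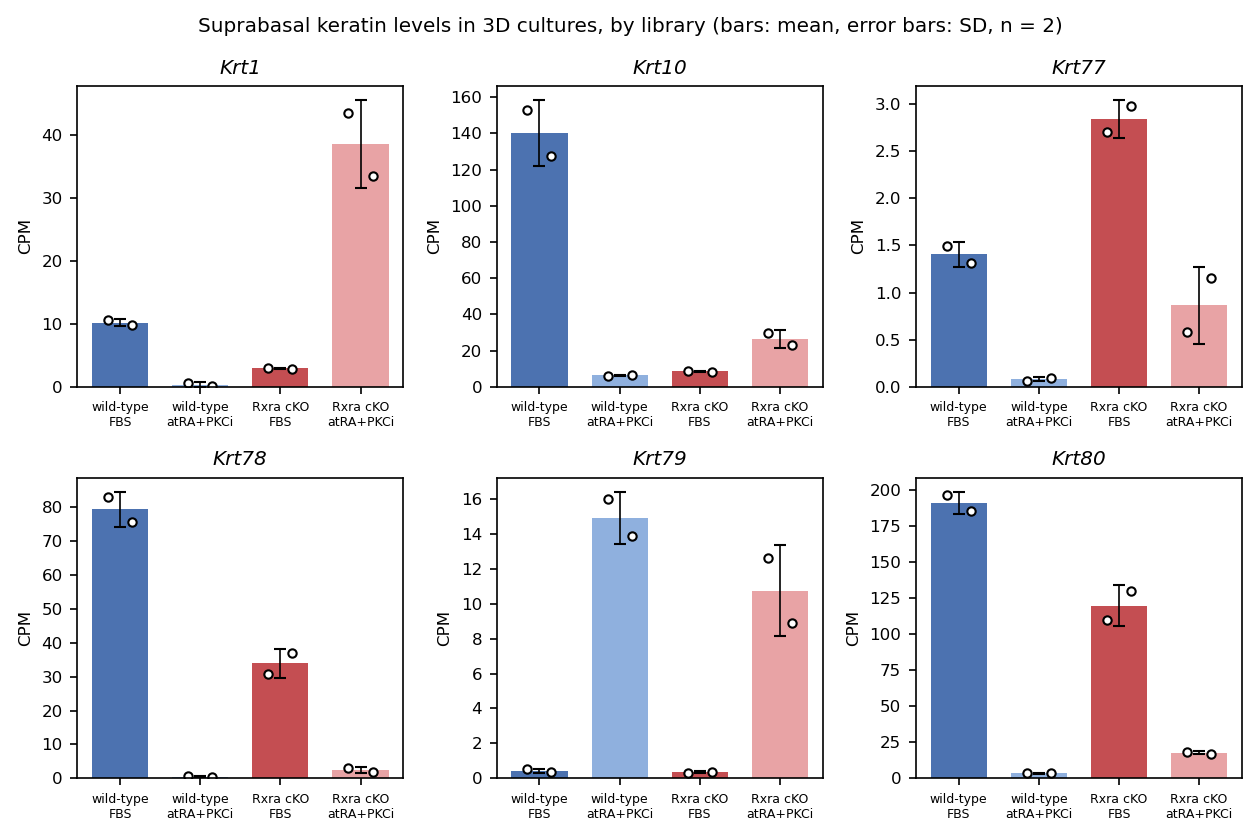
Level of each keratin (CPM, linear axis from 0) in the 4 RNA-seq groups, with 1 point per library, bars at the mean and error bars for the SD of the 2 libraries. Krt1 and Krt10 were higher in atRA+PKCi than in FBS only in the libraries labelled Rxra cKO, and Krt79 was higher in atRA+PKCi in both genotypes.

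Krt1 stood at 10.5 and 9.77 CPM for wild-type in FBS, 0.609 and 0.0634 for wild-type in atRA+PKCi, 3.02 and 2.88 in Rxra cKO FBS, and 43.4 and 33.5 in Rxra cKO atRA+PKCi. No groups overlapped, and the highest group was Rxra cKO atRA+PKCi. The wild-type atRA+PKCi libraries rest on 19 and 2 counts and differ the most from each other. The log2 fold change of atRA+PKCi against FBS was -4.91 (SE 0.42, adjusted p = 1.70e-05) in wild-type and 3.70 (SE 0.30, adjusted p = 2.20e-05) in Rxra cKO. Between genotypes, Krt1 was 3.44-fold lower in Rxra cKO in FBS (log2 -1.78, SE 0.30, adjusted p = 0.00164, a call not made by limma on the authors' normalized counts) and 114-fold higher in atRA+PKCi (log2 6.83, SE 0.40, adjusted p = 3.26e-06).

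Krt10, the type I partner, stood at 153 and 127 CPM for wild-type in FBS, 6.09 and 6.53 for wild-type in atRA+PKCi, 8.59 and 8.36 in Rxra cKO FBS, and 29.8 and 22.9 in Rxra cKO atRA+PKCi. The order of the groups was not that of Krt1, since wild-type FBS held the most Krt10 and Rxra cKO atRA+PKCi the second most. Krt10 fell 22.2-fold in wild-type (log2 -4.47, SE 0.15, adjusted p = 5.81e-08) and rose 3.12-fold in Rxra cKO (log2 1.64, SE 0.14, adjusted p = 3.61e-05). The genotype difference was -4.05 in FBS (SE 0.15, adjusted p = 4.21e-07) and 2.06 in atRA+PKCi (SE 0.15, adjusted p = 1.08e-05).

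The proportion of the 2 partners was compared on 3 scales. The ratio of Krt1 to Krt10 counts was 0.0689 and 0.0767 in wild-type FBS, 0.351 and 0.345 in Rxra cKO FBS, and 1.46 and 1.46 in Rxra cKO atRA+PKCi. In wild-type atRA+PKCi it was 0.10 and 0.00971, on the few Krt1 counts named above. Krt10 has an annotated transcript of 557 bases beside its full one of 2094 bases. Its length factor is the count over the authors' normalized value, relative to the median gene of the library. This factor moved 3.21-fold between libraries, more than in 99.7% of 11770 genes. With the normalized counts the authors deposited, the Krt10 changes between media were smaller (log2 -2.86 in wild-type and 0.76 in Rxra cKO) and passed the same threshold in the same directions. The genotypes also lay nearer together in normalized Krt10 than in CPM. In atRA+PKCi it was 334 and 377 in wild-type and 569 and 496 in Rxra cKO. In FBS it was 2810 and 2363 in wild-type and 301 and 328 in Rxra cKO. On those values the ratio of Krt1 to Krt10 was 0.112 and 0.122 for wild-type in FBS, 0.0543 and 0.00491 for wild-type in atRA+PKCi, 0.299 and 0.260 in Rxra cKO FBS, and 2.30 and 2.03 in Rxra cKO atRA+PKCi. Per kilobase of exon, the counts gave 0.0330 and 0.0367 for wild-type in FBS, 0.168 and 0.165 in Rxra cKO FBS, and 0.698 and 0.701 in Rxra cKO atRA+PKCi. The ratio was highest in Rxra cKO atRA+PKCi on all 3 scales, while which partner was the more abundant there depended on the scale.

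Krt78 was at 83.1 and 75.8 CPM for wild-type in FBS, 0.545 and 0.317 for wild-type in atRA+PKCi, 30.9 and 37.0 in Rxra cKO FBS, and 3.09 and 1.86 in Rxra cKO atRA+PKCi. Krt80 was at 196 and 185, 3.78 and 3.39, 110 and 130, and 18.6 and 16.9 CPM in the same groups. For both genes the groups ran in the same order, wild-type FBS, Rxra cKO FBS, Rxra cKO atRA+PKCi and wild-type atRA+PKCi, with no overlap. In wild-type, Krt78 was 183-fold lower in atRA+PKCi (log2 -7.51, SE 0.25, adjusted p = 5.81e-08) and Krt80 was 53.2-fold lower (log2 -5.73, SE 0.12, adjusted p = 1.10e-08). In Rxra cKO, the differences were 13.3-fold for Krt78 (log2 -3.74, SE 0.20, adjusted p = 2.00e-06) and 6.73-fold for Krt80 (log2 -2.75, SE 0.10, adjusted p = 3.83e-07). Against wild-type, both were lower in Rxra cKO FBS, by log2 -1.23 (SE 0.15, adjusted p = 0.000315) and -0.67 (SE 0.09, adjusted p = 0.000470), and both were higher in Rxra cKO atRA+PKCi, by 2.55 (SE 0.34, adjusted p = 0.000419) and 2.31 (SE 0.12, adjusted p = 2.03e-06).

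Krt77 was the only tested keratin whose mean was higher in Rxra cKO than in wild-type in FBS. Its levels were low, at 1.5 and 1.31 CPM for wild-type in FBS, 0.0641 and 0.0950 for wild-type in atRA+PKCi (2 and 3 counts), 2.70 and 2.98 in Rxra cKO FBS, and 0.576 and 1.15 in Rxra cKO atRA+PKCi. The groups did not overlap. atRA+PKCi went with a log2 change of -4.07 in wild-type (SE 0.50, adjusted p = 0.000153) and -1.74 in Rxra cKO (SE 0.35, adjusted p = 0.00406). The genotype difference in atRA+PKCi was 3.35 (SE 0.51, adjusted p = 0.000864). That in FBS was 1.01 (SE 0.34, adjusted p = 0.0398), and this call was lost in DESeq2, in limma on the authors' normalized counts, and without any 1 of the 4 FBS libraries.

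Krt79, the keratin of the infundibulum and sebaceous duct, went the other way in both genotypes. It stood at 0.511 and 0.348 CPM for wild-type in FBS, 16.0 and 13.9 for wild-type in atRA+PKCi, 0.324 and 0.389 in Rxra cKO FBS, and 12.6 and 8.90 in Rxra cKO atRA+PKCi. The media did not overlap, and the genotypes overlapped in FBS. The rise was 34.3-fold in wild-type (log2 5.10, SE 0.26, adjusted p = 6.97e-07) and 29.8-fold in Rxra cKO (log2 4.90, SE 0.27, adjusted p = 2.43e-06). The genotype difference was -0.27 in FBS (95% interval -1.15 to 0.62, adjusted p = 0.641) and -0.47 in atRA+PKCi (95% interval -0.89 to -0.05, adjusted p = 0.0695), and in atRA+PKCi it was called lower with no filter on low counts and without Rxra cKO atRA+PKCi replicate 1.

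In wild-type, 5 of the 6 tested keratins were called lower in atRA+PKCi and 1 higher, where 26.6% and 27.2% of all 15965 tested genes were. In Rxra cKO, 3 were lower and 3 higher, where 22.2% and 20.8% of all genes were. In FBS, 4 were lower and 1 higher in Rxra cKO than in wild-type, against 20.5% and 22.3% of all genes. In atRA+PKCi, 5 were higher and 0 lower in Rxra cKO, against 23.0% and 20.2% of all genes. The medians over the 6 keratins were log2 -4.69, -0.05, -0.95 and 2.43 in these comparisons, and the median over all genes was at most 0.03.

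**Figure D2:**
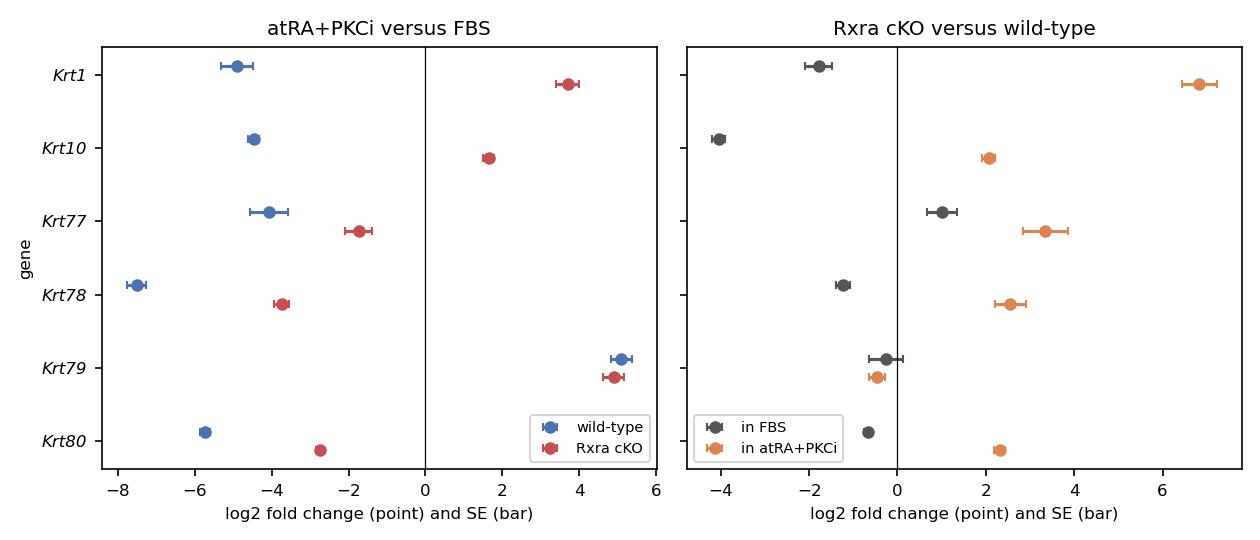
Log2 fold change of each keratin with its SE (bars), for atRA+PKCi against FBS in wild-type and Rxra cKO (left) and for Rxra cKO against wild-type in FBS and in atRA+PKCi (right). Krt1 and Krt10 lie on opposite sides of 0 in the 2 genotypes at left, and the 2 points of Krt79 lie close together.

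The difference between the 2 media effects, wild-type minus Rxra cKO, was tested as an interaction. It was -8.61 for Krt1 (SE 0.51, adjusted p = 1.26e-05) and -6.11 for Krt10 (SE 0.21, adjusted p = 1.74e-06), the pair whose direction turned. For Krt78 it was -3.78 (SE 0.37, adjusted p = 0.000192) and for Krt80 -2.98 (SE 0.15, adjusted p = 6.38e-06), whose change kept its direction and was smaller in Rxra cKO. For Krt77 the value was -2.33 (SE 0.63, adjusted p = 0.0279), a call lost in DESeq2 and without any 1 of 6 libraries. The effect on Krt79 differed by 0.20, with a 95% interval of -0.80 to 1.2 (adjusted p = 0.828). The 5 negative calls of 6 stand beside 13.3% of all genes, and 0 keratins and 11.3% of all genes had a positive one. On the authors' normalized counts both media effects on Krt10, and so its interaction, were smaller.

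Levels of different keratins were compared per kilobase of exon, the union of all annotated transcripts with retained introns among them. This length was 4753 bases for Krt79 beside a coding transcript of 2097, and 4415 for Krt1 beside 2455. For Krt80 it was 6393 beside coding transcripts of 2811 to 3919, and for Krt10 2114 beside 2094. The orders below hold on this scale only, since coding lengths would set Krt79, Krt80 and Krt1 higher against Krt10. In wild-type FBS the order was Krt10 (66.3 ± 8.55 CPM per kb, SD, n = 2), Krt80 (29.9 ± 1.23), Krt78 (23.1 ± 1.5), Krt1 (2.30 ± 0.124), Krt77 (0.479 ± 0.0442) and Krt79 (0.0903 ± 0.0243), with every step larger than the spread. In wild-type atRA+PKCi, Krt79 at 3.14 ± 0.312 and Krt10 at 2.98 ± 0.145 CPM per kb led and did not differ beyond their spread. Krt80 followed there at 0.561 ± 0.0437, and the levels of Krt78 (0.13 ± 0.0470), Krt1 (0.0762 ± 0.0875) and Krt77 (0.0272 ± 0.00745) lay within the spread of Krt1. Krt80 led in Rxra cKO FBS at 18.7 ± 2.20 CPM per kb, before Krt78 at 9.88 ± 1.24, Krt10 at 4.01 ± 0.0799, Krt77 at 0.968 ± 0.0682, Krt1 at 0.669 ± 0.0221 and Krt79 at 0.0749 ± 0.00967. The order in Rxra cKO atRA+PKCi was Krt10 (12.4 ± 2.30), Krt1 (8.70 ± 1.58), Krt80 (2.78 ± 0.182), Krt79 (2.26 ± 0.550), Krt78 (0.721 ± 0.253) and Krt77 (0.295 ± 0.140), where Krt10 and Krt1, and Krt80 and Krt79, lay within their summed SDs. The 7 keratins together made up 0.741% and 0.653% of all keratin CPM for wild-type in FBS, 0.124% and 0.111% for wild-type in atRA+PKCi, 0.455% and 0.478% in Rxra cKO FBS and 0.345% and 0.276% in Rxra cKO atRA+PKCi.

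Other genes of epidermal differentiation were counted by list, each beside the whole-table shares given above. Of 31 cornified envelope and barrier genes, 30 were lower and 0 higher in wild-type atRA+PKCi (median log2 -7.84) and all 31 were lower in Rxra cKO (median -3.26), so that none rose with Krt1 and Krt10. Cnfn, of the cornified envelope, changed by -11.05 (SE 0.37, adjusted p = 5.42e-08) in wild-type and -4.11 (SE 0.22, adjusted p = 2.08e-06) in Rxra cKO. In atRA+PKCi, 24 of these 31 genes were higher and 0 lower in Rxra cKO than in wild-type (median 2.73). Of 19 tested early suprabasal and adhesion genes, 18 were lower and 0 higher in wild-type (median -2.47), and 13 were lower and 1 higher in Rxra cKO (median -0.72). Krtdap, a keratinocyte differentiation gene of the same layers as Krt1, changed by -9.90 (SE 0.28, adjusted p = 2.33e-08) in wild-type and -1.65 (SE 0.17, adjusted p = 9.64e-05) in Rxra cKO. Between genotypes, 15 of these 19 were lower and 2 higher in FBS (median -0.70), and 14 were higher and 0 lower in atRA+PKCi (median 1.45). Desmosomal Dsg1a did not pass the threshold between media in Rxra cKO (-0.19, SE 0.16, adjusted p = 0.387).

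Among 25 transcription factors of epidermal differentiation, 17 were lower and 6 higher in wild-type atRA+PKCi, and 10 were lower and 8 higher in Rxra cKO. Hopx changed by -7.23 (SE 0.17, adjusted p = 1.15e-08) and -3.23 (SE 0.13, adjusted p = 4.94e-07) in that order, and Prdm1 by -5.18 (SE 0.21, adjusted p = 1.69e-07) and -2.55 (SE 0.17, adjusted p = 7.18e-06). In the Notch pathway, 4 of 11 tested genes fell and 2 rose in wild-type, and 4 fell and 4 rose in Rxra cKO. The retinoic acid responsive list had 9 of 14 genes higher and 3 lower in wild-type (median 1.78), and 6 higher and 3 lower in Rxra cKO (median 0.62). Dhrs3, which reduces retinaldehyde and is induced by retinoic acid, rose by 4.69 (SE 0.10, adjusted p = 1.10e-08) in wild-type and 2.74 (SE 0.09, adjusted p = 2.93e-07) in Rxra cKO. Of 14 infundibulum and sebaceous duct genes, 10 were lower and 2 higher in wild-type and 8 lower and 3 higher in Rxra cKO, where Krt79 itself rose. Cst6 of this list changed by -7.36 (SE 0.28, adjusted p = 1.21e-07) and -2.52 (SE 0.17, adjusted p = 6.83e-06). Sebaceous gland genes split, with 4 of 9 higher and 3 lower in wild-type and 3 of 9 higher and 3 lower in Rxra cKO.

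Keratins outside the 7 also split, with 9 of 19 higher and 8 lower in wild-type, and 7 higher and 6 lower in Rxra cKO. Krt15, a keratin of the bulge, rose by 10.07 (SE 0.17, adjusted p = 6.16e-09) in wild-type and 5.07 (SE 0.14, adjusted p = 8.72e-08) in Rxra cKO. Krt6b, a keratin of stressed and wounded epidermis, changed by -8.24 (SE 0.16, adjusted p = 1.06e-08) and -2.23 (SE 0.12, adjusted p = 2.71e-06). Of 10 tested HFSC markers, 2 were higher and 6 lower in wild-type, and 2 higher and 3 lower in Rxra cKO. Of 9 tested feeder and fibroblast markers, 1 was higher and 5 lower in wild-type, and 2 higher and 2 lower in Rxra cKO.

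The genes whose pattern over the 8 libraries was most like each keratin were found by Pearson correlation of log2(CPM + 1) over 10446 genes. They were Klk7 (r = 0.999), Ly6g6c and Cnfn for Krt80, and Mmp13 (0.998), Lce3f and Rnf19b for Krt78. For Krt79 they were Stra6 (0.997), Sdhaf1 and Klhl24, for Krt10 Tgfb2 (0.988), Tchh and Pnrc1, for Krt77 Pfn1 (0.983) and Itpripl2, and for Krt1 Gm16136 (0.980), Limk2 and Agpat3. The number of genes with r over 0.95 was 559 for Krt78 and 547 for Krt80, and 34 for Krt10 and 15 for Krt1. The 8 points are 4 groups of 2, so that these values describe group patterns.

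The single cell matrices of back skin showed where these keratins sit in the tissue. After filters, 13625 cells of mouse 1 (median 8671 unique molecular identifiers, UMIs) and 13520 cells of mouse 2 (median 10438) fell into 29 clusters, made without the 7 keratins among the genes, and 62 cell barcodes occurred in both libraries. Sorting had left out cells with CD45, CD31, CD140a or CD117, yet 5604 and 5512 cells were fibroblast-like and 2 of those clusters were mostly of 1 mouse each (3106 of 3155 and 2594 of 2808 cells). One cluster of 600 cells, 300 of each mouse, held both suprabasal and infundibular markers and was named infundibular and suprabasal epidermal-like. Its suprabasal markers included Krtdap at 1377 and 1443 CPM in mouse 1 and mouse 2, against 20.0 and 6.43 in all other cells, and Sbsn at 1262 and 816. Its infundibular markers included Cst6 at 8194 and 3694 CPM, while Klk10 of that list was at 3.28 and 5.85 and Dkk4 at 0. Basal markers were high as well, with Krt14 at 3509 and 4084 CPM against 231 and 190 in all other cells. Krt5 stood at 2044 and 2491 CPM against 350 and 273, while Ly6a and Mt2 of the basal list were lower than in other cells. The name thus does not cover all cells of this cluster. Lor, of the granular layer, was near its level in other cells, at 4.10 and 5.56 CPM against 3.45 and 3.02.

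**Figure D3:**
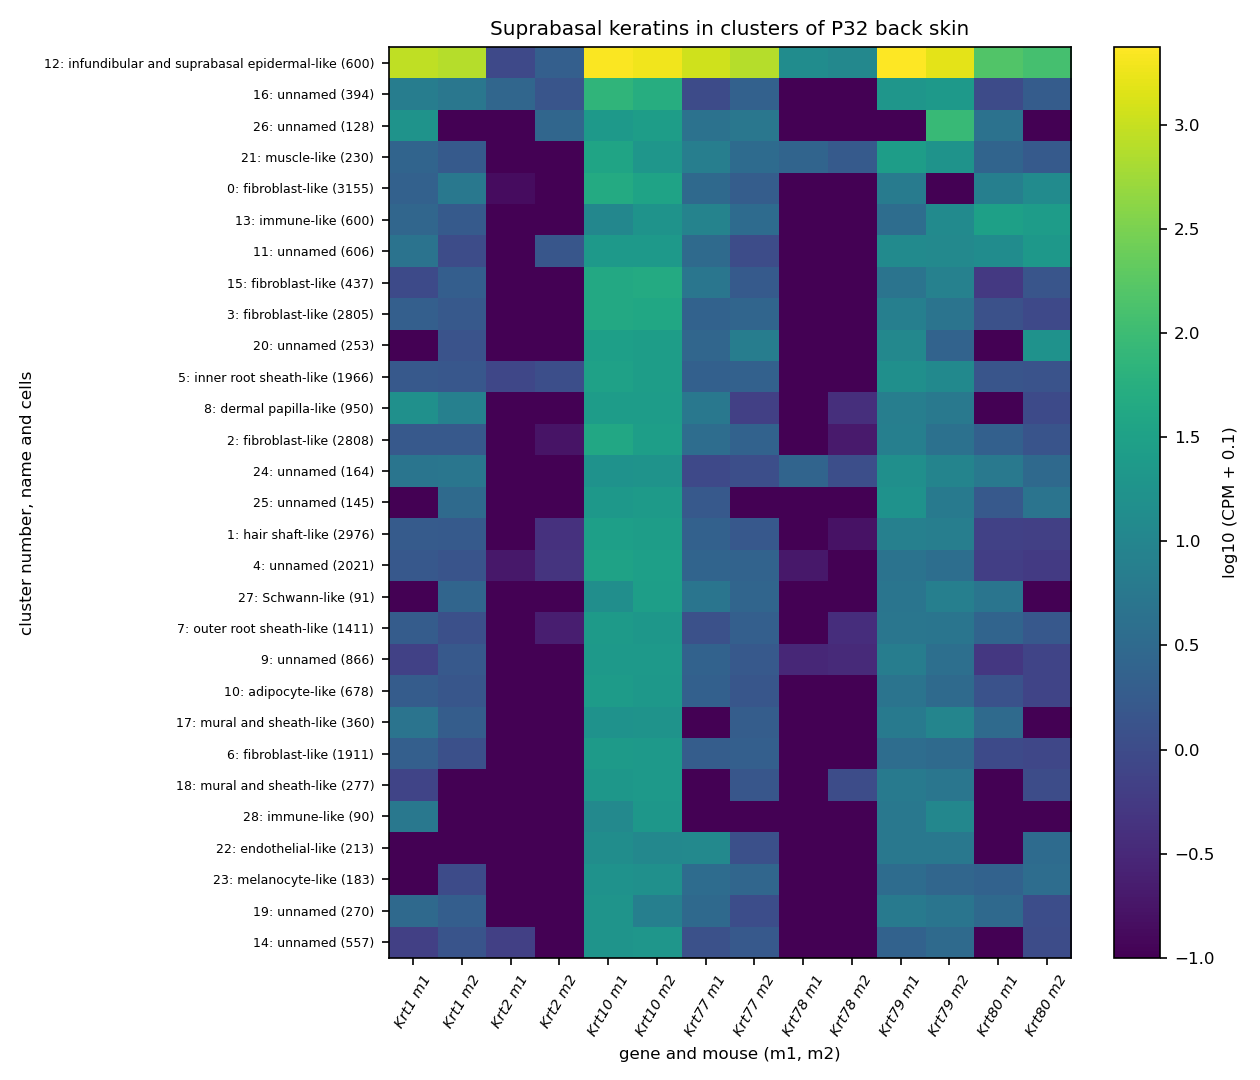
Level of each keratin in the 29 clusters of back skin, per mouse (m1, m2), as log10 of CPM + 0.1, with the cluster number, name and number of cells. The cluster of 600 infundibular and suprabasal epidermal-like cells stands at the top of every keratin but Krt2, and Krt10 is found at a low level in all clusters.

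In this cluster Krt10 stood at 2217 and 1883 CPM in mouse 1 and mouse 2, against 34.0 and 27.7 in all other cells. Krt1 was at 886 and 784 CPM, against 2.13 and 1.65. Krt79 was at 2361 and 1535 CPM, against 7.55 and 5.93. Krt77 reached 1139 and 764 CPM against 2.52 and 2.04, and Krt80 154 and 123 against 2.90 and 1.83. Krt78 was scarce at 13.5 and 10.8 CPM, against 0.0483 and 0.0809 elsewhere. Krt2 gave 2 and 7 UMIs in the cluster of 17 and 36 in all, and was thus at or near the detection limit in this cluster. Inner root sheath-like cells gave 9 and 10 Krt2 UMIs (0.753 and 1.03 CPM), where 3 UMIs would be 0.251 and 0.308 CPM. These are values of 2 mice with no test, since the clusters come from the same cells.

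The cluster, 2.20% and 2.22% of the cells, held 89.1% and 91.6% of all Krt1 UMIs, 89.9% and 89.6% of Krt77, 86.0% and 85.7% of Krt79 and 84.6% and 75.5% of Krt78. It held 56.2% and 61.1% of Krt10 UMIs and 51.0% and 60.8% of Krt80 UMIs. A UMI of Krt10 was found in 41.3% and 45.7% of cells of the cluster and in 29.1% and 27.8% of fibroblast-like cells, a type that should lack it. With every cell thinned to 2000 UMIs, which left out 7 and 9 cells of the cluster and 68 and 90 fibroblast-like cells, the shares were 30.7% and 31.3% against 7.95% and 5.88%. The medians before thinning were 7436.5 and 10566.5 UMIs in the cluster and 8806 and 11732 in fibroblast-like cells. The Krt10 share in fibroblast-like cells is the level to read the cluster against. Krt1 was detected in 22.7% and 26.0% of the cluster against 1.62% and 1.81% of fibroblast-like cells, thinned to 19.1% and 19.2% against 0.488% and 0.314%. Krt10 gave 2.50 and 2.40 UMIs per Krt1 UMI in the cluster and 16.0 and 16.7 in all other cells. Outside the cluster, Krt80 was highest in an immune-like cluster and in an unnamed one led by Krt6a, at 30.9 and 25.8 CPM in the first and 13.1 and 21.7 CPM in the second.

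Within the 600 cells, Krt1 and Krt79 lay mostly in different cells, while Krt77 and Krt80 were found with each of them. The cells were clustered again by themselves into 8 sub-clusters, a step added after the data had been seen. Sub-cluster 4 (78 cells, led by Prr9, Flg2 and Serpinb12) held the classical pair, with Krt1 at 5035 and 3776 CPM and Krt10 at 10767 and 7660 CPM. In it Krt77 stood at 4347 and 2291 CPM and Krt78 at 93.2 and 57.4, and Krt79 gave 0 UMIs in both mice. Sub-cluster 5 (77 cells, led by Gm12068, Sectm1b and Slc46a2, with Cst6 at 38290 CPM) was the reverse, with Krt79 at 7401 and 7201 CPM and Krt1 at 2.64 and 4.37. Krt10 was at 319 and 450 CPM there and Krt77 at 899 and 1022. Sub-cluster 3 (78 cells, led by 2310046K23Rik) held both, with Krt79 at 6489 and 7071 CPM and Krt1 at 728 and 186. Krt10 was at 4155 and 2669 CPM in it and Krt77 at 2358 and 1902. Krt80 lay between 177 and 284 CPM in these 3. Sub-cluster 2 (81 cells, led by the lipid synthesis genes Fa2h and Elovl3) held Krt79 at 515 and 495 CPM, with Krt10 at 18.0 and 16.9 and Krt80 at 0 and 1.53. The largest, sub-cluster 0 (136 cells), held Krt79 at 877 and 581 CPM and Krt1 at 14.6 and 49.7. Sub-cluster 1 (100 cells, with Krt14 at 10486 CPM) held Krt1 at 94.8 and 54.1 CPM and Krt79 at 0 and 5.41. Sub-clusters 6 and 7 had under 20 cells of each mouse.

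**Figure D4:**
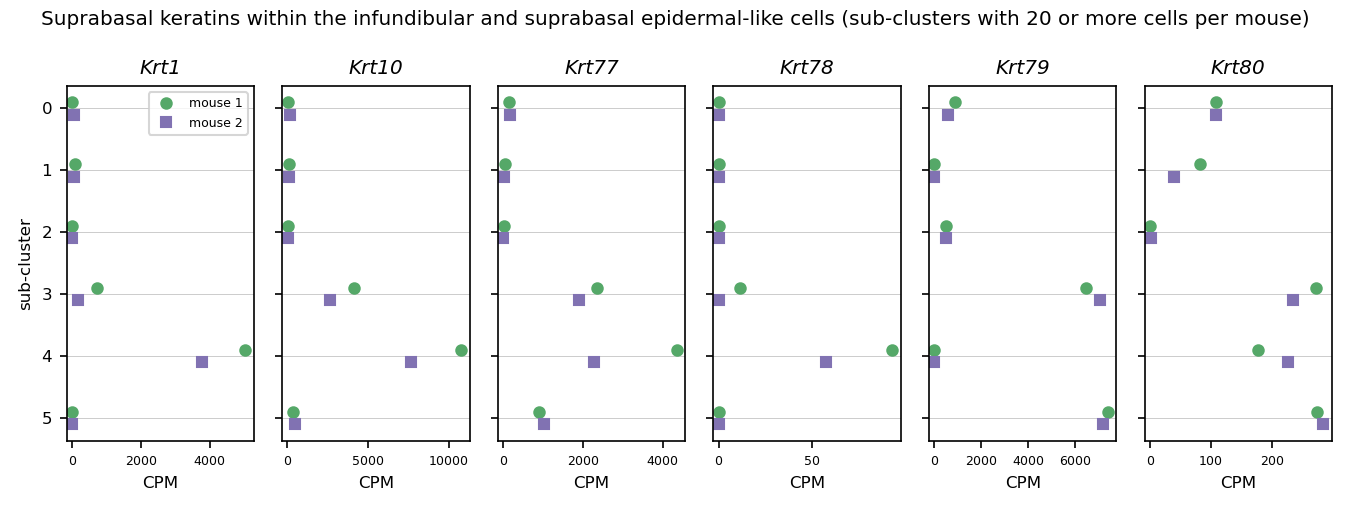
Level of 6 keratins (CPM, linear axes) in sub-clusters of the 600 cells, with 1 point per mouse. Sub-clusters with under 20 cells of a mouse are not drawn. Krt1 and Krt78 are highest in sub-cluster 4, where Krt79 gave 0 UMIs, and Krt79 is highest in sub-clusters 3 and 5.

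Detection in single cells was compared over the 300 cells of each mouse, in which Krt1 was found in 22.7% and 26.0% and Krt10 in 41.3% and 45.7%. Of cells with a Krt1 UMI, 85.3% and 88.5% also had Krt10 and 86.8% and 83.3% had Krt77. Of cells with a Krt79 UMI, 10.5% and 7.14% had Krt1, below its share of all 300 cells. Krt10 was found in 38.4% and 34.4% of them, nearer to its share of all cells and not far above that of fibroblast-like cells. At the finer Leiden resolution of 1.2 the 600 cells fell into 347 infundibular and suprabasal epidermal-like cells and 253 sebaceous gland-like cells. The cells given the sebaceous name held Krt79 at 865 and 526 CPM, Krt77 at 130 and 106, Krt80 at 89.7 and 53.3, Krt10 at 67.0 and 69.3, and Krt1 at 8.65 and 39.6. The name need not cover all 253 cells, since only the 81 cells of sub-cluster 2 were led by lipid synthesis genes. Scd1 stood at 1279 CPM in sub-cluster 2 against 36.6 in sub-cluster 0. In sub-cluster 2 Krt77 was at 18.0 and 1.53 CPM and Krt80 at 0 and 1.53. Over 54 sums of a cluster and a mouse and 11957 genes, the pattern most like that of Krt79 was Defb6 (r = 0.846), that most like Krt77 was Cst6 (0.855), and that most like Krt1 and Krt10 was 2310046K23Rik (0.854 and 0.857). For Krt78 and Krt80 they were Skint6 (0.863) and Skint3 (0.827). The sums of a mouse share 1 library, so these values only describe the pattern.

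The cultured single cells added the serum-free media without and with atRA+PKCi, in hashtagged cultures of the same 2 mice. After filters and hashtag calls 222 cells of mouse 1 (median 29322.5 UMIs) and 78 of mouse 2 (median 23958.5) were kept, none of them from FBS, and 0 barcodes were shared. Conditions were B-27 alone (5 and 10 cells), atRA+PKCi (2 and 1 cells), and atRA+PKCi with R-spondin (Rspo, 5 and 6), BMP2/4 (113 and 13), Rspo+BMP2/4 (92 and 27) or Rspo+BMP2/4 and an inhibitor of retinoic acid receptors (RARi, 5 and 21). UMIs were summed per mouse and condition, and 3 of the 7 keratins (Krt10, Krt78 and Krt80) passed the filter among 6265 tested genes. The 5 conditions other than atRA+PKCi alone were compared. B-27 alone lacked atRA+PKCi and the BMP2/4 and Rspo cultures held it. In comparisons with B-27, the effect of BMP2/4 or Rspo thus cannot be told apart from that of atRA+PKCi. Summed feeder markers were at 156 to 1014 CPM and immune markers at 0 to 26.8 CPM in these sums, and their part was not tested.

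**Figure D5:**
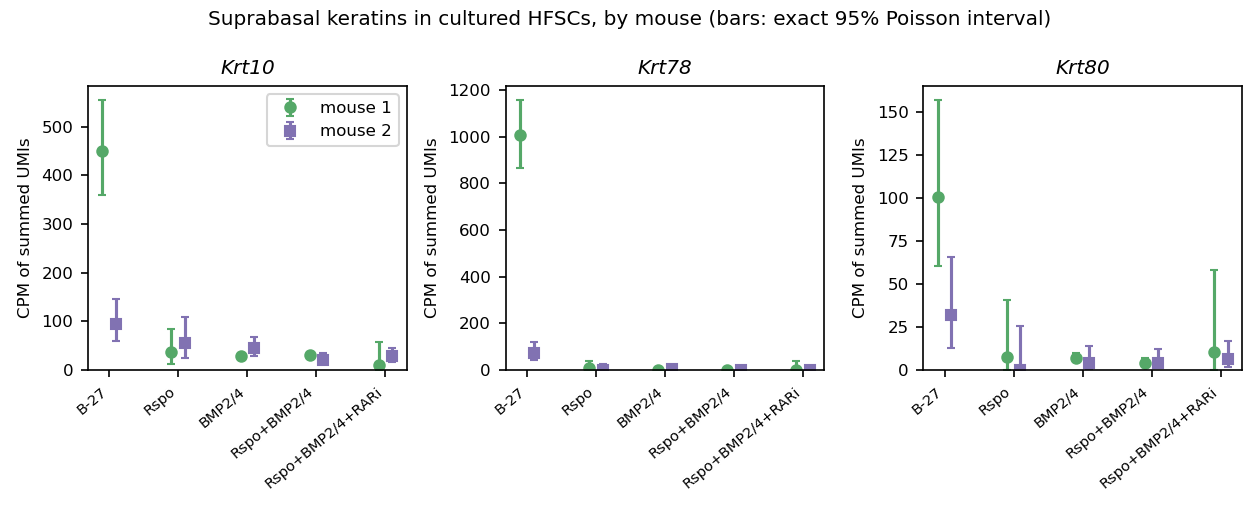
CPM of summed UMIs of Krt10, Krt78 and Krt80 in cultured HFSCs, by condition, with 1 point per mouse and the exact 95% Poisson interval, which covers counting error only. Both mice are highest in B-27 for all 3 genes, and mouse 1 lies far above mouse 2 there.

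Krt10 gave 85 UMIs (450 CPM) and 21 UMIs (95.6 CPM) in B-27 in mouse 1 and mouse 2, 5 (36.5) and 8 (55.1) in Rspo, 108 (29.2) and 23 (45.0) in BMP2/4, 78 (29.9) and 15 (21.1) in Rspo+BMP2/4, and 1 (10.4) and 17 (28.2) in Rspo+BMP2/4+RARi. B-27 was the highest condition in each mouse. Against B-27, Krt10 was lower in BMP2/4 (log2 -2.77, SE 0.56, adjusted p = 0.00226) and missed the threshold of 0.01 in Rspo (log2 -2.28, adjusted p = 0.0445). Krt78 gave 190 UMIs (1006 CPM) and 16 (72.8) in B-27 and at most 5 UMIs in any other sum. It was lower in BMP2/4 (log2 -8.30, SE 1.05, adjusted p = 3.00e-05) and in Rspo (log2 -6.90, SE 1.29, adjusted p = 0.00403). Krt80 gave 19 UMIs (101 CPM) and 7 (31.9) in B-27 against 25 (6.76) and 2 (3.92) in BMP2/4. It was lower in BMP2/4 (log2 -3.22, SE 0.70, adjusted p = 0.00389) and missed the threshold in Rspo (log2 -3.91, adjusted p = 0.0570).

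All 3 tested keratins were thus called lower and 0 higher in BMP2/4, where 5.28% and 0.431% of all genes were, and 1 of 3 was called lower and 0 higher in Rspo, where 1.90% and 0.0958% were. These calls rest on few cells. In B-27 of mouse 1, 1 cell of 27849 UMIs held 72 of the 85 Krt10 UMIs, 189 of the 190 Krt78 UMIs and all 19 Krt80 UMIs, with 0 UMIs of Krt1, and it held UMIs of 27 of the 31 cornified envelope genes. In mouse 2, 1 cell of 8305 UMIs held 15 of the 16 Krt78 UMIs. Without B-27 of mouse 1, 1 of the 3 keratins was called lower in BMP2/4 and 0 in Rspo, and without either mouse of BMP2/4, 1 was. Of 21 tested cornified envelope genes, 19 were lower and 0 higher in BMP2/4 than in B-27 (median log2 -4.80), and so were 9 of 18 early suprabasal genes (median -2.22). The cornified envelope counts also rest on few cells. In B-27 of mouse 1, the cell of 27849 UMIs held 4074 UMIs of that list, against 36 to 357 in the other cells. In mouse 2 the B-27 cells held 16 to 1473.

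Adding Rspo to BMP2/4, or RARi to Rspo+BMP2/4, gave 0 calls by edgeR among the keratins and 0% of all genes, with 44 and 232 genes at an unadjusted p under 0.05 and 0 calls by DESeq2. The difference in Krt10 was -0.45 (95% interval -1.60 to 0.70) and -0.24 (95% interval -1.65 to 1.17). Krt1 gave 3 UMIs in BMP2/4 and 2 in Rspo+BMP2/4 of mouse 1 and 0 in every other sum. Krt79 gave 2 UMIs in BMP2/4 and 10 in Rspo+BMP2/4 of mouse 1 (3.84 CPM, in 7 cells) and 1 in Rspo+BMP2/4+RARi of mouse 2. Krt2 and Krt77 gave 0 UMIs in all sums, which at the depth of the B-27 sums allows up to 15.9 and 13.7 CPM at 3 UMIs each. In atRA+PKCi alone, Krt10 gave 2 and 0 UMIs and the tested set left this condition out.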

How the data were processed

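The study lists 27 samples, of which the 8 RNA-seq libraries and the 4 single cell matrices were used here. For RNA-seq, the authors deposited estimated counts per gene from Salmon 1.4.0 (per the labels) and tximport on mm10, not normalized, and a second table of a normalized signal with effective lengths taken into account, used only in alternatives. The single cell matrices deposited by the authors hold whole UMI counts (Cell Ranger 7.0.0 per the file headers and 7.0.1 per the labels), and the removal of ambient RNA and of doublets in the study is not part of these values. The members and gene lists were chosen with earlier results of these data known. All 7 members are named, and of each other list up to 4 called genes of the largest fold change with at least 5 CPM in a group. The genes most like a member are the 3 of highest correlation, of which 1 is not reported here.

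Estimated counts were rounded, filtered with filterByExpr and scaled by TMM, and 1 quasi-likelihood fit of 4 group means was made (edgeR 4.0.16, R 4.3.3), with a Benjamini-Hochberg adjusted p under 0.05 over 15965 genes as the call. The labels give the culture of 1 mouse in both media the same number, and the correlation of these pairs' deviations was 0.135 (wild-type) and -0.000821 (Rxra cKO). Pairs of libraries of different genotype, which share no mouse, lay between -0.138 and 0.138, so these values do not show a pairing. Replicates differed by more than counting noise (mean chi-square per gene 5.77 to 26.5).

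Cells with at least 500 genes, 1000 UMIs and under 10% mitochondrial UMIs were kept. In vivo doublets were called with Scrublet (833 and 395 cells) and cells were clustered with scanpy 1.11.5 (Leiden, resolution 0.6). A cluster took the name of the marker list with the best mean score, if at least 1, with at least 3 markers detected in 10% of cells and no other list with more markers among its top 10 genes. A joint name, for a second list within 0.5 of the best score, was added after the data had been seen. HTODemux (Seurat 5.3.0) assigned hashtags and marked 40 and 16 doublets, and sums of at least 5 cells were tested with edgeR (adjusted p under 0.01 with a log2 fold change beyond 1 either way). The steps were tested on simulated data with known changes. Gene positions and exon lengths came from GENCODE M21 and promoters from RefSeq. Of the members, 5 had a promoter there, and Krt1 and Krt80 are named only. Intervals and floors cover counting error only. Per the labels a replicate is 1 mouse, so p-values rest on 2 mice per group.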

Additional observations from a re-analysis of the deposited data

Results flagged for a closer look

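The effect of atRA+PKCi against FBS differed between wild-type and Rxra cKO for 5 of the 6 tested keratins, by the test of the interaction in edgeR with Benjamini-Hochberg adjustment, all 5 with a negative value, as had 13.3% of all genes, where 11.3% had a positive one. The wild-type effect minus the Rxra cKO effect was -8.61 on the log2 scale for Krt1 and -6.11 for Krt10, the pair that was lower in atRA+PKCi in wild-type and higher in the libraries labelled Rxra cKO, with no overlap of libraries in either genotype. It was -3.78 for Krt78, -2.98 for Krt80 and -2.33 for Krt77, which were lower in atRA+PKCi in both genotypes. The Krt77 call was lost in DESeq2, under the stricter threshold and without any 1 of 6 libraries. The Krt10 difference was smaller on the authors' normalized counts. Summed feeder and fibroblast markers were lower in atRA+PKCi in both genotypes (517 to 521 CPM against 815 to 824 in wild-type and 462 to 472 against 594 to 618 in Rxra cKO). Single genes of that list went both ways in each genotype, and the part of such cells in these differences was not tested. With 2 samples in each group, single outlying samples could not be tested for.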

How the results depend on the processing

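In RNA-seq, 408 of 432 values of single keratins kept their direction and their side of the threshold, 19 lost the call, 2 gained it and 3, all of Krt79, changed sign. Of 144 counts of called keratins, 134 stayed within 1.5 times. In Rxra cKO against wild-type in FBS, the keratins called higher went from 1 to 0 with DESeq2, with a stricter threshold (adjusted p under 0.01, log2 fold change beyond 1 either way) and with limma on the authors' normalized counts at a pseudocount of 1 or 0.5, and ranged from 0 to 1 with 1 library left out. The Krt79 difference there ranged from -0.51 to 0.041 with 1 library left out, the latter without wild-type FBS replicate 1. In atRA+PKCi the keratins called lower in Rxra cKO were 1 with no filter on low counts and 0 to 1 with 1 library left out. The Krt79 interaction ranged from -0.046 to 0.51, and was below 0 without wild-type FBS replicate 2 (-0.046) or Rxra cKO atRA+PKCi replicate 2 (-0.026). The replicate block (mouse within genotype) changed no keratin call, with 8470 against 8599 genes called in wild-type, 6671 against 6861 in Rxra cKO and 3615 against 3924 in the interaction. The stricter threshold called 2960 genes in wild-type, 1858 in Rxra cKO, 1761 between genotypes in FBS, 2081 in atRA+PKCi (6840 and 6895 in the main fit) and 1134 in the interaction. Without Rxra cKO atRA+PKCi replicate 1 or 2, 4543 and 4585 genes were called in Rxra cKO and 2458 and 2392 in the interaction.

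In cultured cells, the block by mouse left 3 keratins lower in BMP2/4 and 1 in Rspo than in B-27. With 1 sum left out these were 1 to 3 in BMP2/4 and 0 to 2 in Rspo, and a lone sum is assumed to vary like the others. Rspo gave 2 with hashtags called by share, with under 25% mitochondrial UMIs, with an adjusted p under 0.05 and with no filter on low counts. Of all genes, 358 were called in BMP2/4 and 125 in Rspo, against 615 and 300 by hashtag share, 521 and 206 at 25% mitochondrial UMIs, 650 and 419 at 0.05 and 503 and 332 with no filter. Without mouse 1 or mouse 2, the BMP2/4 comparison called 205 and 233 when left out of B-27 and 61 and 126 when left out of BMP2/4, and the Rspo comparison called 77 and 84 when left out of B-27 and 0 and 3 when left out of Rspo. Differences that were not called changed sign with 1 sum left out, with a range of -0.97 to 0.94 in Krt78 and -0.86 to 0.080 in Krt80 for Rspo+BMP2/4 against BMP2/4, and of -1.93 to 0.16 in Krt10 for RARi. In vivo at Leiden resolution 1.2, the named cluster kept 347 cells, and 253 were set apart as sebaceous gland-like, with 12.0% and 11.3% of Krt79 UMIs. The cluster's share of UMIs was then 9.43% for Krt2, 85.4% for Krt77, 74.2% for Krt79 and 45.1% for Krt80. With the keratins kept among the clustering genes it was 9.43%, 85.7%, 74.1% and 44.7%. With doublets kept it was 89.3% for Krt77 and 85.5% for Krt79, and with 1000 genes and under 5% mitochondrial UMIs 90.4% and 86.6%. The causes of these changes were not tested. Depth limits Krt2 throughout, Krt77 and Krt1 in wild-type atRA+PKCi, and every keratin in the cultured sums of few cells.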
